A study of Mus musculus with 3 samples.

Results

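The genes described here are 7 subunits of the transcription factor AP-1, Fos, Fosb, Fosl2, Jun, Junb, Jund and Atf3, chosen by their symbols from the 32285 genes of the count tables. They were picked because earlier results of the same tables had shown them, so their differences between groups are given as a description with no test. Droplet-based libraries of transcript 3′ ends, in which each captured molecule carries a unique molecular identifier (UMI), were made from brain cells sorted at 4 °C by flow cytometry for intermediate CD45 and for CD11b, the surface pattern of microglia. All mice were APOE knockouts, the allele of which is not given, and all were sampled on day 4 after induction. The groups were NMOSD induction (a model of neuromyelitis optica spectrum disorder) with APOE130-149, a peptide named after part of the APOE protein, NMOSD induction with a control peptide, and sham induction with PBS. Each group was 1 library from 4 pooled mice, so no difference below has a replicate check, and treatment and library cannot be told apart. Intervals in brackets are exact 95% intervals and cover counting error only.

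AP-1 is a dimer of basic leucine zipper proteins. Fos family proteins bind DNA only when paired with a Jun family protein, whereas Jun family proteins can also pair with each other, and Atf3, of the related ATF/CREB family, pairs with Jun proteins. Fos, Fosb, Jun, Junb and Atf3 are immediate early genes, transcribed within minutes of a stimulus without new protein synthesis, and their mRNAs are short-lived. In microglia, which are macrophages of the brain parenchyma, AP-1 sites lie in many enhancers that respond to injury and inflammation.

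The stretch of 130 bases before the transcription start is shown for the 5 genes in which a searched motif was found there, as the signals behind immediate early transcription converge on such elements. Sequences are those of RefSeq on GRCm38.p6, read 5′ to 3′ on the gene's strand, and capitals mark the motif. They lie at chr12:85473760-85473889 (Fos, plus strand), chr7:19310046-19310175 (Fosb, minus strand), chr8:84978749-84978878 (Junb, minus strand), chr1:191183334-191183463 (Atf3, minus strand) and chr4:95052223-95052352 (Jun, minus strand).
Fos: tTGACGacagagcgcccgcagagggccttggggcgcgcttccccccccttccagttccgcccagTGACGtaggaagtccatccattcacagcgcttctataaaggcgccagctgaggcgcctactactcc
Fosb: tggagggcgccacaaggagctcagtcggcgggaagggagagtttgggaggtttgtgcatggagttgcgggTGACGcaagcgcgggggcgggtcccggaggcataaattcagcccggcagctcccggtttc
Junb: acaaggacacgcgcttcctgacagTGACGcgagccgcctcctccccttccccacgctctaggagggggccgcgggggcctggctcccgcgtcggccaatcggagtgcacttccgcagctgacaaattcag
Atf3: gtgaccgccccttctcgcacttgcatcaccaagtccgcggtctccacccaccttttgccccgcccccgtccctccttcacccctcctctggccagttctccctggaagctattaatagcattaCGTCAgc
Jun: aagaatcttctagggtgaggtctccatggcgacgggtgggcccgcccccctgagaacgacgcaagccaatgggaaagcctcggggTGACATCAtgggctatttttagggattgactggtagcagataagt
The 5 letters TGACG, the half-site of the cAMP response element that CREB and ATF proteins bind, were searched on both strands of the 250 bases before the start. They were found in 4 of the 7 genes, against 17.8% of 32851 promoter windows of that length. Fos held 2 matches, beginning 129 and 66 bases before its start, Fosb 1 at 60 bases, Junb 1 at 106 bases and Atf3 1 at 7 bases, on the opposite strand. TGACATCA, the variant of the element known from the Jun promoter, was found in Jun at 45 bases and in 2.93% of all windows. The full element TGACGTCA (1.55% of windows), the AP-1 site TGANTCA (6.75%) and the CArG box bound by serum response factor (1.47%) were in none of the 7 windows, and Fosl2 and Jund held none of the 5 motifs. Every TGACGTCA holds TGACG, so those counts overlap. Sequence farther than 250 bases before the RefSeq start, or after it, was not searched, so a site there would be missed. The RefSeq start differed from the gene start in GENCODE by 1210 bases for Jund, 671 for Fosl2 and 34706 for Atf3, whose GENCODE gene includes a start farther upstream. The GENCODE start lies downstream of the RefSeq start for Jund and upstream for Fosl2, and the bases directly before it were not searched.

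The libraries held 2175 barcodes and 32060750 UMIs with APOE130-149, 5306 barcodes and 61469677 UMIs with the control peptide and 4674 barcodes and 32712199 UMIs in sham. The control peptide and sham libraries shared 9 barcodes, the APOE130-149 and control peptide libraries 3 and the APOE130-149 and sham libraries 0. Cells were assigned by marker genes, with no use of the AP-1 genes, to microglia (1685 with APOE130-149, 4323 with the control peptide and 3858 in sham), border-associated macrophages (17, 16 and 14 cells), neutrophils (70, 139 and 72) and monocytes (29, 50 and 31), with the libraries in that order. All 11 microglia markers were detected in the microglia of every library, including P2ry12 at 2675, 2455 and 2647 CPM. Here CPM is a gene's UMIs per 1000000 UMIs of all cells of a type in a library, and levels of different genes are not ranked, as capture at the 3′ end differs between genes. Apoe was read at 115, 105 and 82.4 CPM in microglia, and a 3′ tag does not check a deletion elsewhere in the gene.

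In microglia, 6 of the 7 AP-1 genes had the order APOE130-149 above control peptide above sham, with intervals that did not overlap, while those of Fosl2 overlapped in all 3 libraries. Of the 7, 6 were at least 1.5-fold higher with APOE130-149 than in sham, where 1.68% of 8507 genes with at least 10 CPM in the higher library were, and 0 were lower, against 1.03%. With the control peptide, 6 were at least 1.5-fold higher than in sham, where 1.48% of 8494 genes were, and 0 were lower, against 0.977%; Fosl2 was below 10 CPM in both of those libraries. Both comparisons use the same sham library. Between the NMOSD libraries, Fos and Fosb, 2 of the 7, were at least 1.5-fold higher with APOE130-149 than with the control peptide, where 0.442% of 8375 genes were, and 0 were lower, against 0.0955%. Nothing is read from these shares, as the genes were chosen on these contrasts.

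**Figure D1:**
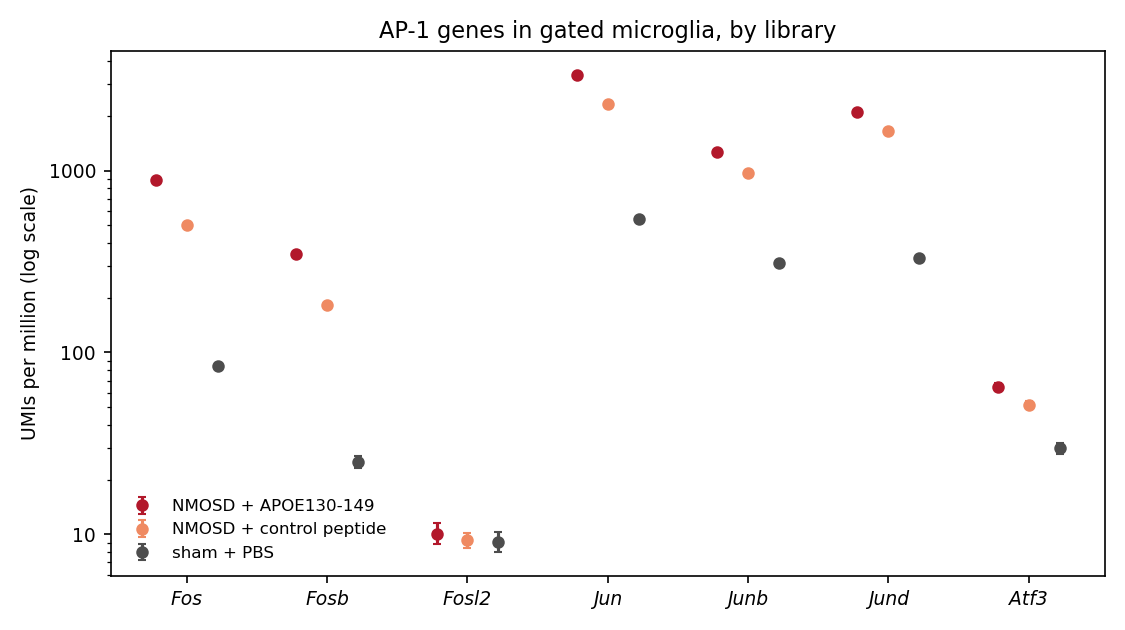
Level in CPM (log axis) of the 7 AP-1 genes in gated microglia of the 3 libraries, with exact 95% intervals for counting error, most of which are smaller than the points. Fosl2 lay at 9.07 to 10.1 CPM in all libraries, while Fos, Fosb, Jun, Junb, Jund and Atf3 were highest with APOE130-149 and lowest in sham.

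Among the Fos family, Fos (ENSMUSG00000021250, GRCm38 chromosome 12, 85473890 to 85477273) is the classic partner of Jun. It had 884.6 CPM with APOE130-149, 504.3 CPM with the control peptide and 84.1 CPM in sham microglia. That was 10.5-fold [10.1 to 10.97] over sham with APOE130-149 and 5.99-fold [5.75 to 6.25] with the control peptide, and 1.75-fold [1.72 to 1.79] between the NMOSD libraries. In the 41, 118 and 205 microglia of the 3 libraries that passed a stricter gate, with no marker of another type, the Fos ratios over sham were 6.16 with APOE130-149 and 3.27 with the control peptide. Fosb (ENSMUSG00000003545, chromosome 7, 19302696 to 19310051), known for its long-lived truncated form in neurons, had the largest ratio of the 7 in each of the 3 comparisons. It had 349.5 CPM with APOE130-149, 181.9 CPM with the control peptide and 25.1 CPM in sham, that is 13.9-fold [12.9 to 15.1] and 7.25-fold [6.72 to 7.84] over sham and 1.92-fold [1.86 to 1.98] between the NMOSD libraries. By ratio over sham, Fosb ranked 8th and Fos 10th of the 8507 genes with APOE130-149, and 6th and 10th of the 8494 genes with the control peptide. Fosl2 (ENSMUSG00000029135, chromosome 5, 32135801 to 32157842), which encodes Fra-2, a Fos family protein without the strong activation domain of Fos, stood apart. Its levels of 10.1 CPM with APOE130-149, 9.25 CPM with the control peptide and 9.07 CPM in sham gave 1.11-fold [0.927 to 1.33] and 1.02-fold [0.872 to 1.20] over sham, and 1.09-fold [0.923 to 1.28] between the NMOSD libraries. All 3 intervals hold 1, and the widest reaches 1.33-fold. Under the stricter gate the Fosl2 ratio of the control peptide over sham was 1.67.

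The Jun family was higher in both NMOSD libraries. Jun (ENSMUSG00000052684, chromosome 4, 95049034 to 95052222), the target of Jun N-terminal kinases, had 3355 CPM with APOE130-149, 2325 CPM with the control peptide and 541 CPM in sham, that is 6.20-fold [6.10 to 6.31] and 4.299-fold [4.23 to 4.37] over sham. Jund (ENSMUSG00000071076, chromosome 8, 70698949 to 70700616), in many tissues the member most expressed in resting cells, had 2094 CPM with APOE130-149, 1647 CPM with the control peptide and 331 CPM in sham. Its ratios over sham were 6.33 [6.20 to 6.47] with APOE130-149 and 4.98 [4.88 to 5.09] with the control peptide. Junb (ENSMUSG00000052837, chromosome 8, 84974484 to 84978718), which can counter Jun at shared targets, had 1261 CPM with APOE130-149, 974 CPM with the control peptide and 311 CPM in sham, that is 4.05-fold [3.96 to 4.15] and 3.13-fold [3.06 to 3.20]. Between the NMOSD libraries the 3 genes stayed under 1.5-fold, with Jun at 1.44 [1.43 to 1.46], Junb at 1.29 [1.28 to 1.31] and Jund at 1.27 [1.26 to 1.29]. Junos overlaps Jun, Prdx2 overlaps Junb and Gm11175 overlaps Jund on the opposite strand, and whether counting used strand is not given in the sources used here. The microglia held at most 177 UMIs of Junos and 62 of Gm11175 in any library. Prdx2 had 2556 UMIs with APOE130-149, 5388 with the control peptide and 2917 in sham, against 28779, 43378 and 9022 for Junb.

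Atf3 (ENSMUSG00000026628, chromosome 1, 191170296 to 191218039), induced by stress and known to restrain inflammatory transcription in macrophages, had the smallest ratio of the 6 higher genes over sham. It had 64.8 CPM with APOE130-149, 51.7 CPM with the control peptide and 29.7 CPM in sham, that is 2.18-fold [2.00 to 2.37] and 1.74-fold [1.61 to 1.88] over sham and 1.25-fold [1.17 to 1.34] between the NMOSD libraries. Under the stricter gate the Atf3 ratio of the control peptide over sham was 1.41, below 1.5-fold. In microglia of 4000 to 16000 UMIs, Atf3 was 0.917-fold with APOE130-149 relative to the control peptide. Without microglia above 2 times the median UMIs of all kept cells of their library it was 0.936-fold. The makeup of the summed AP-1 UMIs differed between libraries. Fos gave 11.03% of them with APOE130-149, 8.86% with the control peptide and 6.32% in sham, and Junb 15.7%, 17.1% and 23.4%, while Jun gave 41.8%, 40.8% and 40.6%.

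Shares of cells were compared after each cell was thinned to 2000 UMIs, which left out 118 of the microglia with APOE130-149, 268 with the control peptide and 907 in sham. Fos was detected in 62.8% [60.3 to 65.2] of 1567 cells with APOE130-149, 43.6% [42.1 to 45.2] of 4055 with the control peptide and 5.96% [5.14 to 6.88] of 2951 in sham. Without thinning the shares were 86.1%, 66.5% and 12.6%. Jun was detected in 93.4% of cells with APOE130-149, 90.01% with the control peptide and 47.5% in sham. Jund was in 89.98%, 85.9% and 40.9% and Junb in 77.7%, 71.6% and 36.3% of cells in the same order. Fosb was in 39.4% of cells with APOE130-149, 25.3% with the control peptide and 3.15% in sham, whereas Atf3 was in 7.79%, 6.19% and 5.02% and Fosl2 in 2.11%, 1.82% and 2.03%. Free RNA in droplets adds to such shares, and none of the gated types is known to lack these genes, so no background share could be read.

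Nearly the whole microglial population of the NMOSD libraries carried AP-1 transcripts, and a small group of sham cells did so at like levels. Per thinned cell, the summed count of the 7 genes had a median of 15 with APOE130-149, 10 with the control peptide and 2 in sham. Cells at 0 made up 1.72% with APOE130-149, 2.66% with the control peptide and 21.96% in sham. At least 4 of the 7 genes were detected in 63.2% of cells with APOE130-149, 44.3% with the control peptide and 3.73% in sham. The sham median of 2 was exceeded by 94.4% of cells with APOE130-149 and 90.6% with the control peptide. In the other direction, 2.98% of sham cells exceeded the control peptide median of 10, and 1.59% exceeded the APOE130-149 median of 15.

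**Figure D2:**
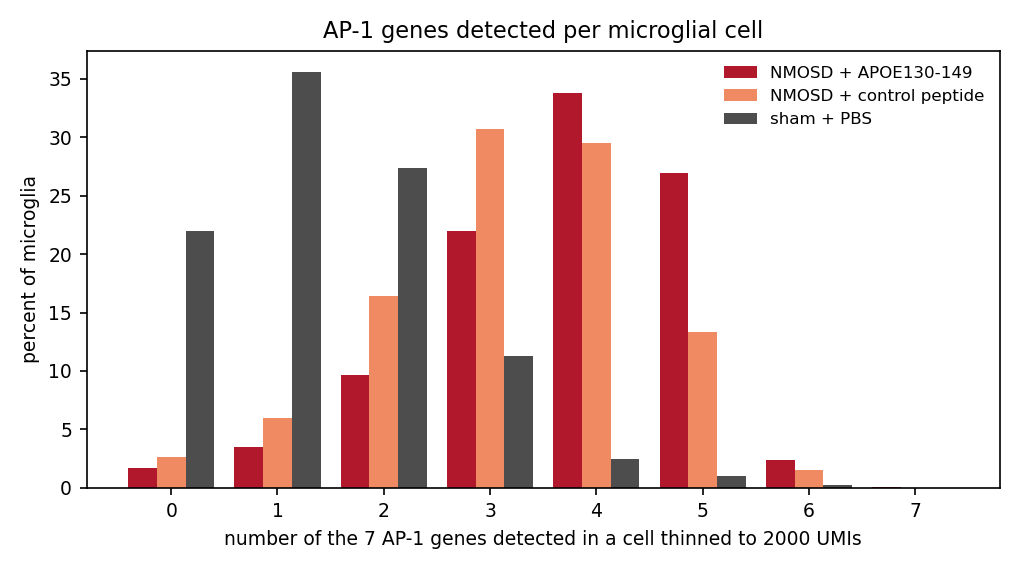
Percent of gated microglia of each library (bars) by the number of the 7 AP-1 genes detected after thinning to 2000 UMIs. Most cells of both NMOSD libraries had 3 or more of the genes, whereas 35.6% of sham cells had 1 and 21.96% had 0.

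These high cells held unequal parts of each gene's sham transcripts. The 88 sham cells with over 10 summed AP-1 UMIs, a range cut from a continuous count with 25 cells at 9 or 10 and 20 cells at 11 or 12, held 74.7% of the Fos and 54.5% of the Fosb UMIs of the thinned sham microglia. They held 27.05% of the Jun, 20.9% of the Junb, 20.3% of the Jund, 22.2% of the Atf3 and 6.56% of the Fosl2 UMIs. The cells were chosen by these same counts, so high shares follow in part from the choice. Under the same cut, 71.0% of cells with APOE130-149 held 92.4% of the Fos UMIs, and 48.1% of cells with the control peptide held 81.3%. Before thinning, the 0.25% of cells with the most Fos held 26.4% of sham Fos UMIs, against 3.67% with APOE130-149 and 4.21% with the control peptide. The high sham cells had a median of 9532 UMIs per cell, against 8220 in the other sham microglia, and a median mitochondrial share of 1.60%, against 1.97%. Their Egr1 averaged 18.9 UMIs per 10000, against 0.346 in the other sham microglia, and their P2ry12 23.6, against 27.9. The variance of the summed count over its mean was 6.12 with APOE130-149, 6.57 with the control peptide and 9.497 in sham.

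Fos, Fosb and the Jun genes varied together from cell to cell within each library, while Atf3 with Fosb (0.01) and with Jund (0.04) had low values with APOE130-149. Over the 21 pairs of genes, this measure, Pearson's r of thinned counts, had a median of 0.16 with APOE130-149, 0.22 with the control peptide and 0.29 in sham. The pair of Fos and Jun, which form the classic AP-1 dimer, stood at 0.39 over 1567 cells with APOE130-149, 0.44 over 4055 cells with the control peptide and 0.67 over 2951 cells in sham. Fos and Fosb stood at 0.27, 0.32 and 0.61 in the same order, and Jun and Jund at 0.42, 0.43 and 0.53. Pairs with Fosl2 lay between -0.05 and 0.04 in every library, at counts too sparse to read. In sham, Jun was detected in 77.3% of cells with a Fos UMI and 45.6% of cells without one, and Fosb in 19.3% and 2.13%. With APOE130-149, Jun was detected in 97.1% of cells with a Fos UMI and 87.3% of cells without. These correlations are descriptions: the cells of a library share its preparation and free RNA, and cells at 0 for both genes raise r.

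**Figure D3:**
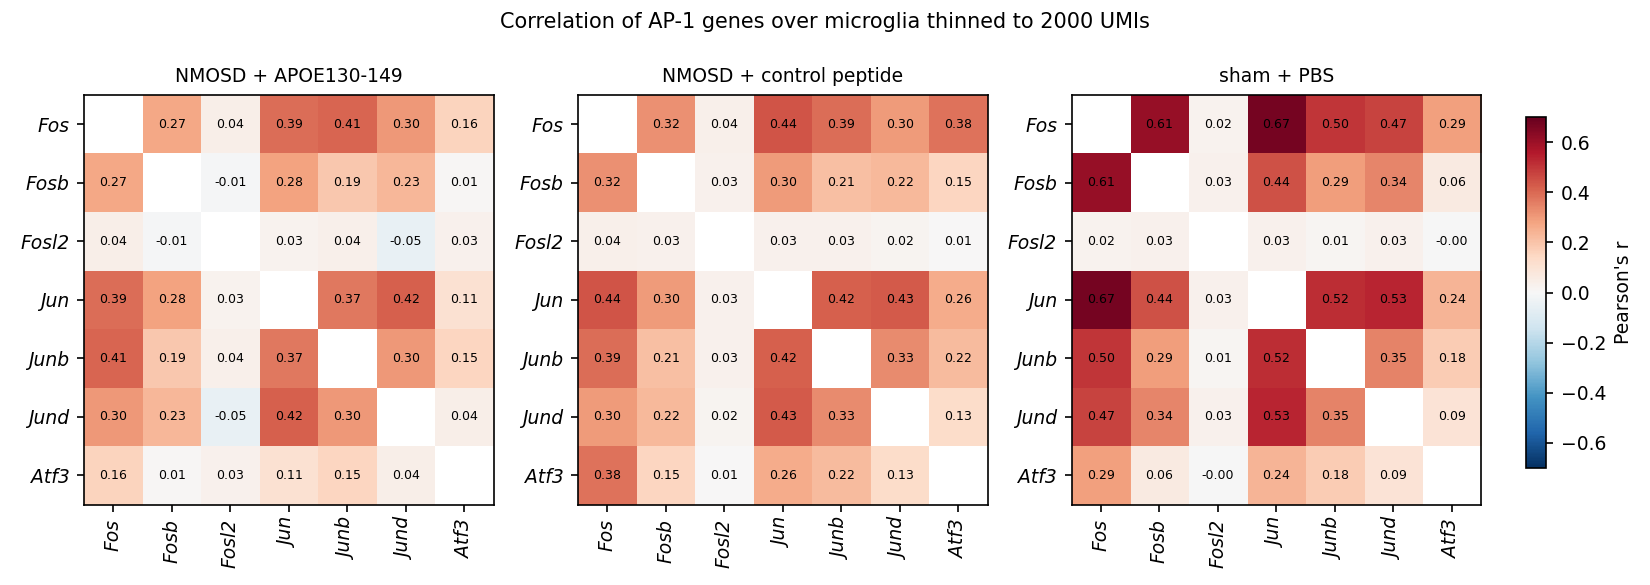
Pearson's r between thinned counts of each pair of the 7 AP-1 genes over gated microglia, 1 panel per library. The Fosl2 row is near 0 in each panel, and the pair of Fos and Jun reached 0.67 in sham, against 0.39 with APOE130-149 and 0.44 with the control peptide.

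The genes most like the AP-1 sum from cell to cell included other immediate early genes. Of 3084 genes with at least 50 CPM in every library, ranked by the lowest r of the 3 libraries, the first was Egr1, a zinc finger factor, at 0.50 with APOE130-149, 0.52 with the control peptide and 0.74 in sham. The next were Btg2, an antiproliferative gene (lowest r 0.44), Zfp36, which encodes the mRNA decay factor tristetraprolin (0.41), Klf2 (0.37), the histone H3.3 gene H3f3b (0.36), the GTPase gene Rhob (0.36), Klf6 (0.33) and Ier5 (0.28). P2ry12, the homeostatic purinergic receptor of microglia, had 0.09, 0.02 and -0.03 in the same order.

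The pathway around AP-1 differed between its parts. Over all genes with at least 10 CPM in the higher library, the median log2 ratio was -0.05 with APOE130-149 over sham, -0.08 with the control peptide over sham and 0.01 between the NMOSD libraries, against 2.63, 2.10 and 0.37 for the 7 AP-1 genes. Of 11 measured other immediate early genes, 11 were at least 1.5-fold higher with APOE130-149 and 11 with the control peptide than in sham, and 5 were higher with APOE130-149 than with the control peptide. Their median log2 ratios were 2.23, 1.71 and 0.49 in that order. Klf4, a zinc finger factor, was the highest of that list in each comparison, at 223.8 CPM with APOE130-149, 111.5 CPM with the control peptide and 9.83 CPM in sham. The lowest were Gadd45g, a stress-induced gene, at 1.91-fold with APOE130-149 over sham and 0.972-fold between the NMOSD libraries, and Btg1 at 1.87-fold with the control peptide over sham. Of 11 MAP kinase phosphatases and mRNA decay factors, Dusp1, Zfp36 and Zfp36l1 were higher with APOE130-149 than in sham, and Dusp1 and Zfp36 with the control peptide, while 0 were lower. The median log2 ratios of this list were 0.03, -0.03 and 0.30, and 0 genes passed between the NMOSD libraries, where Zfp36 was the highest at 1.47-fold. Dusp1, which dephosphorylates p38 and JNK, had 202.8 CPM with APOE130-149, 155.8 CPM with the control peptide and 30.7 CPM in sham. Zfp36 had 824.3, 560.3 and 165.4 CPM in that order. The lowest of this list were Dusp7 with APOE130-149 (0.889-fold over sham), Khsrp with the control peptide (0.758-fold over sham) and Elavl1 between the NMOSD libraries (1.03-fold).

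The other basic leucine zipper factors and the kinases upstream of AP-1 showed little difference in mRNA. Of 27 measured other AP-1 and related factors, 1, the circadian factor Dbp at 1.66-fold, was at least 1.5-fold higher with APOE130-149 than in sham, and 0 were lower. With the control peptide 0 of 27 were higher or lower than in sham, with a range set by Crebl2 at 0.673-fold and Dbp at 1.45-fold. Between the NMOSD libraries 0 of 26 passed, and Cebpa, a myeloid factor, was the highest at 1.37-fold and Creb1 the lowest at 0.918-fold. The lowest with APOE130-149 over sham was Crebl2 at 0.772-fold, and the list's median log2 ratios were -0.07, -0.12 and 0.05 in the order of the comparisons above. Fosl1, the remaining Fos family gene, had 0 UMIs in the microglia of each library. None of the 30 MAP kinases and kinases above them passed 1.5-fold in either direction over sham in either NMOSD library, nor did any of 29 between the NMOSD libraries, and their median log2 ratios were -0.11, -0.16 and 0.06. Map2k3 was the highest with APOE130-149 over sham (1.21-fold). The extremes were Map2k2 (1.12-fold) and Mapk14 (0.776-fold) with the control peptide over sham, and Map3k11 (1.20-fold) and Map3k3 (0.959-fold) between the NMOSD libraries. Of the SRF cofactors, 0 of 3 passed in any comparison, and the ratios ran from 0.841 (Elk4, control peptide over sham) to 1.15 (Elk3, between the NMOSD libraries), with Mrtfa the lowest of the last comparison at 1.05-fold. With APOE130-149 over sham, Elk3 was at 1.07-fold and Elk4 at 0.905-fold, and the list's median log2 ratios were -0.07, -0.14 and 0.11.

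Genes of microglial identity and of stress were described beside these. Of 12 homeostatic microglia genes, 0 passed 1.5-fold in any comparison, with Tgfbr1 the lowest (0.800-fold) with APOE130-149 over sham, and extremes of Fcrls (1.12-fold) and Tgfbr1 (0.796-fold) with the control peptide over sham, and Csf1r (1.17-fold) and Siglech (0.954-fold) between the NMOSD libraries. Their median log2 ratios were 0.03, -0.05 and 0.05. Of 11 heat shock and chaperone genes, 2, Hspa1a and Hspa1b, were higher with APOE130-149 than in sham and than with the control peptide, and 0 were higher with the control peptide than in sham. Hspa1a had 30.9 CPM with APOE130-149, 12.1 CPM with the control peptide and 8.21 CPM in sham, and Hspa1b, a near-identical copy, 30.7, 10.96 and 14.8 CPM. With the control peptide over sham these were the highest (Hspa1a, 1.47-fold) and the lowest (Hspa1b, 0.739-fold) of the list, whose median log2 ratios were 0.20, 0.04 and -0.06. The lowest in the other comparisons were Hspd1 (0.854-fold, APOE130-149 over sham) and Hsp90ab1 (0.894-fold, between the NMOSD libraries).

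The differences in AP-1 level were also present between cells of like depth and like mitochondrial share. Within 5 bins of UMIs per cell, the summed AP-1 level with APOE130-149 was 5.72 to 11.7 times that of sham, and with the control peptide 4.14 to 6.92 times. Within 5 bins of mitochondrial share the ratios were 5.40 to 7.97 and 4.33 to 4.84. Between the NMOSD libraries they were 1.38 to 1.70 by depth and 1.25 to 1.67 by mitochondrial share. Fos and Fosb were at least 1.5-fold higher with APOE130-149 than with the control peptide in 5 of 5 depth bins, and in 4 and 5 of 5 mitochondrial bins. Atf3 was less even: it was at least 1.5-fold higher than in sham in 4 of 5 mitochondrial bins with APOE130-149 and 3 of 5 with the control peptide, and its lowest ratios there were 0.590 and 0.907. The level itself moved with mitochondrial share: cells at 6 to 10% mitochondrial UMIs had 3692 CPM with APOE130-149, 2698 CPM with the control peptide and 558 CPM in sham, against 7944, 6375 and 1472 CPM in cells under 2%. Sham microglia under 2000 UMIs, 23.5% of the sham microglia, had a Jun level of 181 CPM, against 555 CPM in those with 2000 or more.

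**Figure D4:**
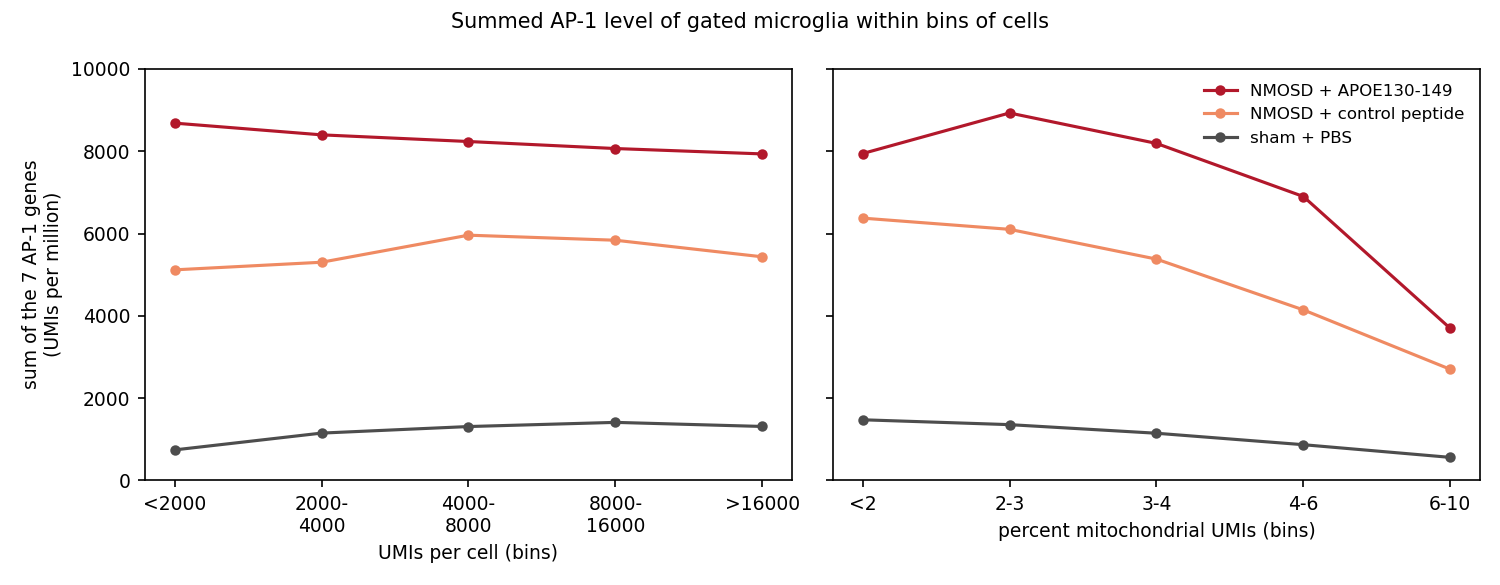
Summed level of the 7 AP-1 genes (CPM) in gated microglia split by UMIs per cell (left) and by percent mitochondrial UMIs (right), 1 line per library. The lines keep the order APOE130-149, control peptide, sham in each of the 5 bins of both splits.

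The microglia of the 3 libraries were spread in different proportions over clusters, made without the AP-1 genes and the listed other immediate early genes. Dusp1, Zfp36 and Rhob were not on that list and were kept. Dusp1 and Zfp36 were among the leading genes of the cluster led by Ccl4, and Rhob of that led by Rgs1. Zfp36 and Rhob followed the AP-1 sum from cell to cell, so the clusters are not independent of the AP-1 level. Each of the 8 microglia-like clusters held microglia of all 3 libraries. A cluster led by Rgs1 held 30.6% of them with APOE130-149, 29.9% with the control peptide and 1.56% in sham, and one led by Ccl4 and Dusp1 held 23.4%, 8.91% and 1.11%. A cluster led by AY036118 held 5.88%, 8.30% and 30.9%, and one led by Saa3 3.68%, 6.64% and 22.6%. A cluster led by Cma1, which was not classed as microglia-like, held 2.08%, 2.68% and 23.8%, with summed AP-1 levels of 2604, 2389 and 696 CPM. Cells of this cluster had a median of 1227 UMIs, against medians of 6962 to 16097 in the microglia-like clusters. Microglia markers in it stood at 0.945 times their level in all kept cells. Ratios were therefore also taken within each of the 8 microglia-like clusters, a split added after seeing the data. Here the summed AP-1 level was 0.885 to 6.32 times that of sham with APOE130-149 and at least 1.5-fold higher in 7 of 8 clusters. It was 0.794 to 4.53 times that of sham with the control peptide and at least 1.5-fold higher in 6 of 8. The cluster led by Ccl4 and Dusp1 gave the lowest values: its 43 sham microglia had 12034 CPM, against 10646 CPM in 394 cells with APOE130-149 and 9557 CPM in 385 with the control peptide, and Fos there was 0.558-fold and 0.477-fold of sham. The sum with APOE130-149 was 1.09 to 1.68 times that with the control peptide and at least 1.5-fold higher in 2 of 8 clusters. Fos lay at 1.17 to 2.24-fold in that comparison, past 1.5-fold in 4 of 8, and Fosb at 0.872 to 2.18-fold, past 1.5-fold in 7 of 8. Atf3 was less even within clusters. With APOE130-149 it was 0.188 to 3.71 times sham, past 1.5-fold in 2 of 8 and above 1 in 5. With the control peptide it was 0.348 to 1.47 times sham, past 1.5-fold in 0 of 8 and above 1 in 5.

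RNA of other cells in the microglia also differed between libraries. The 5 choroid plexus markers summed to 74.7 CPM with APOE130-149, 111 CPM with the control peptide and 1.21 CPM in sham, where Kl and Clic6 were at 0. Ttr gave most of this, at 69.6, 106 and 0.966 CPM. The 5 erythroid markers summed to 9.42, 28.4 and 0.517 CPM, with Hbb-bt and Alas2 at 0 in sham, and 6 of 8 B lineage markers were detected in each library, at 11.04, 11.3 and 52.2 CPM. The 15 neutrophil markers summed to 406, 383 and 484 CPM, the 14 monocyte markers to 82.5, 85.9 and 62.6 CPM and the 11 border-associated macrophage markers to 52.2, 52.3 and 48.9 CPM, all in the order APOE130-149, control peptide, sham. The 5 oligodendrocyte markers were at 51.6, 51.4 and 51.3 CPM. The part of this RNA in the AP-1 levels was not tested.

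Border-associated macrophages, the macrophages of the meninges and perivascular spaces, had AP-1 levels ordered as in microglia for 4 genes, from few cells. The cells carried Mrc1 at 2374, 2641 and 2448 CPM in the 3 libraries. Fos had 1034 CPM [852 to 1245] with APOE130-149, 699 CPM [547 to 880] with the control peptide and 141 CPM [88.6 to 214] in sham. Jun had 2475, 1612 and 488 CPM, Jund 1552, 1330 and 347 CPM and Junb 656, 447 and 122 CPM in that order, and 1 sham cell held 77.3% of the sham Fos UMIs. Fosb had 32 UMIs with APOE130-149, 35 with the control peptide and 3 in sham, Atf3 1, 3 and 2 UMIs, and Fosl2 2, 5 and 0. With APOE130-149 5 of the genes with a ratio were at least 1.5-fold higher than in sham, where 21.8% of all genes were, and 0 were lower by 1.5-fold, against 32.7%. With the control peptide 6 were higher (29.8% of all genes) and 0 lower (30%), and between the NMOSD libraries 1 was higher (27.5% of all genes) and 2 lower (33.2%). The sixth gene of the control peptide count was Atf3, with 3 UMIs against 2, and the 2 lower genes were Atf3 and Fosl2, whose intervals held 1. Under a stricter gate the Fos ratios over sham were 26.2 with APOE130-149 and 29.7 with the control peptide, and 0.882 between the NMOSD libraries, against 7.32, 4.95 and 1.48, and the Jund ratio between the NMOSD libraries was 0.878, against 1.17. Microglia markers stood at 24.9%, 21.2% and 28.2% of their level in microglia. Microglia RNA at those shares would by itself bring Junb to 314, 207 and 87.8 CPM and Jun to 836, 493 and 153 CPM. It would bring Jund to 522, 349 and 93.4 CPM and Fos to 220, 107 and 23.7 CPM. The part of this RNA in the levels was not tested. A further 64, 128 and 40 barcodes carried these markers with more microglia RNA and were kept apart.

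**Figure D5:**
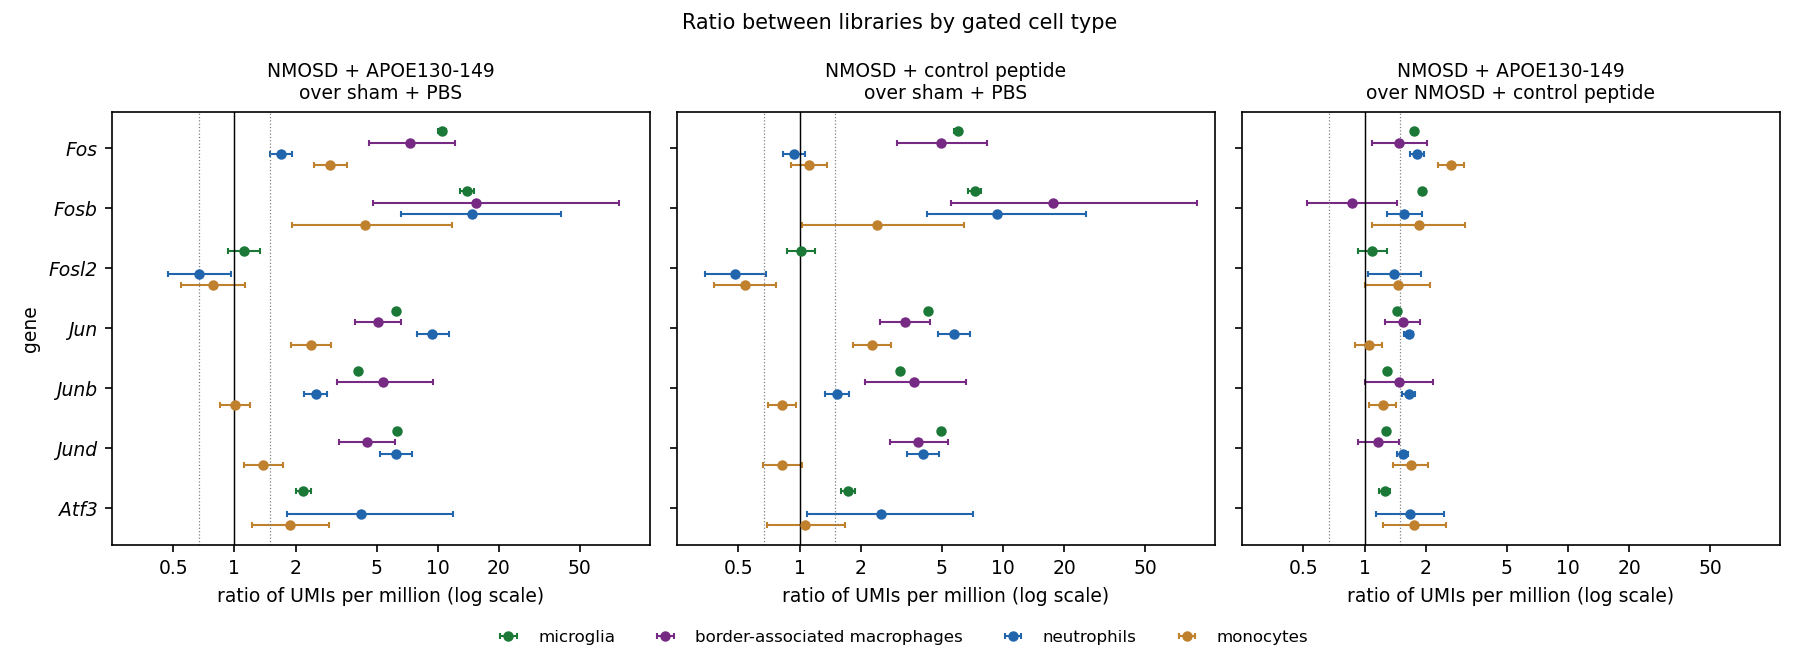
Ratios between libraries (log axis) of the 7 AP-1 genes in 4 gated cell types, with exact 95% intervals for counting error. The solid line marks 1 and dotted lines 1.5-fold in each direction. Values with no ratio or an interval spanning over 30-fold (Fosl2 and Atf3 in border-associated macrophages) are not drawn. Fos lay far from 1 over sham in microglia and near 1 with the control peptide in neutrophils and monocytes.

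In neutrophils, Fos was already high in sham. It had 861 CPM [814 to 909] with APOE130-149, 475 CPM [448 to 503] with the control peptide and 506 CPM [453 to 565] in sham, that is 1.70-fold [1.504 to 1.93] and 0.938-fold [0.829 to 1.07] over sham. Fosl2 had 56.9 CPM with APOE130-149, 40.7 CPM with the control peptide and 84.6 CPM in sham, and was 0.480-fold [0.341 to 0.683] with the control peptide. Jun had 1830, 1112 and 194 CPM, Jund 1266, 823 and 204 CPM and Junb 1038, 630 and 414 CPM in the order APOE130-149, control peptide, sham. Over sham, 6 of the 7 were at least 1.5-fold higher with APOE130-149 (41.4% of all genes) and 0 lower (8.54%), and 5 were higher with the control peptide (38.2%) and 1 lower (9%). Between the NMOSD libraries 6 were higher (7.85%) and 0 lower (4.93%).

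Those neutrophil values hold microglia RNA, in unequal amounts. Microglia markers stood at 47.0% of their level in microglia with APOE130-149, 45.5% with the control peptide and 20.7% in sham. Microglia RNA at those shares would by itself bring Jun to 1576, 1058 and 112 CPM, and Fos to 415, 229 and 17.4 CPM. In the 47, 75 and 43 neutrophils with at least 20 times more neutrophil than microglia marker UMIs, a gate added after seeing the data, microglia markers stood at 8.23%, 11.5% and 9.72%. There Jun had 527 CPM with APOE130-149, 448 CPM with the control peptide and 107 CPM in sham, Fos 628, 353 and 567 CPM, and Fosl2 84.2, 56.9 and 99.9 CPM. Junb had 604, 398 and 377 CPM in these cells, and Atf3 6, 9 and 6 UMIs. The genes at least 1.5-fold higher there were 4 rather than 6 with APOE130-149 over sham, without Fos and Atf3, 2 rather than 5 with the control peptide over sham (Jun and Fosb, at 4.17-fold and 2.03-fold) and 2 rather than 6 between the NMOSD libraries. In that last comparison Fos was at 1.78-fold and Junb at 1.52-fold, whereas Jun was at 1.18-fold, Fosb at 1.22-fold, Jund at 1.45-fold and Atf3 at 0.986-fold. Lower with the control peptide than in sham were Fos at 0.623-fold and Fosl2 at 0.570-fold. The share of all genes past 1.5-fold was not taken in this gate, so nothing is read from these counts. Another setting left out neutrophils above 2 times the median UMIs of all kept cells of their library. The Jun ratios over sham were then 1.81 with APOE130-149 and 1.40 with the control peptide, against 9.41 and 5.72 before. The Fos ratio of the control peptide over sham was 0.616.

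Monocytes had microglia markers at 4.63%, 3.64% and 4.05% of the microglial level. Fos had 1001 CPM [912 to 1097] with APOE130-149, 375 CPM [334 to 420] with the control peptide and 338 CPM [285 to 397] in sham. Its ratio between the NMOSD libraries was 2.67 [2.30 to 3.10], and that of the control peptide over sham was 1.11 [0.908 to 1.36]. Jun had 597 CPM with APOE130-149, 570 CPM with the control peptide and 252 CPM in sham, and Junb had 606, 494 and 601 CPM. Fosl2 had 125 CPM with APOE130-149, 86.3 CPM with the control peptide and 160 CPM in sham, 0.541-fold [0.382 to 0.766] with the control peptide. Atf3 had 143, 81.3 and 76.3 CPM and Jund 443, 263 and 319 CPM in that order. Over sham, 4 of the 7 were at least 1.5-fold higher with APOE130-149 (17% of all genes) and 0 lower (21.3%), and 2 were higher with the control peptide (17.4%) and 1 lower (19.8%). Between the NMOSD libraries 4 were higher (16.4%) and 0 lower (18.7%). With the control peptide, the monocytes carried S100a8, a neutrophil gene, at 10197 CPM, against 130 CPM with APOE130-149 and 53.2 CPM in sham. In the 22, 37 and 29 monocytes with fewer than 4 neutrophil markers, a gate added after seeing the data, Fos had 837 CPM with APOE130-149, 389 CPM with the control peptide and 348 CPM in sham, and Junb 626, 633 and 586 CPM. At least 1.5-fold higher with APOE130-149 than with the control peptide was then 1 gene rather than 4, Fos at 2.15-fold, while Fosb was at 1.26-fold, Jund at 1.32-fold, Atf3 at 1.32-fold and Jun at 0.736-fold. Nothing is read from this count, as the share of all genes past 1.5-fold was not taken in these monocytes. A further setting left out monocytes above 2 times the median UMIs of all kept cells of their library. Those medians were 9991 with APOE130-149, 7848 with the control peptide and 7124 in sham, against 16550, 13624 and 14856 in the monocytes. In sham the cut thus lay below the monocyte median. The Fos ratios over sham were then 4.84 with APOE130-149 and 2.38 with the control peptide, against 2.97 and 1.11 before. The Junb ratio of the control peptide over sham was 1.27, against 0.821.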

How the data were processed

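The deposited matrices give raw UMI counts, whole numbers with no normalization, one value for each gene in each barcode, and name cellranger 7.0.1 per the file headers. The submitters' processing notes list Cell Ranger 5.0.1, Seurat 4.3.0 and mm10. The sources used here do not say which version made the counts or whether introns or strand were used.

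Cells needed at least 500 detected genes and no more than 10% mitochondrial UMIs, which kept 2025 of 2175 barcodes with APOE130-149, 5011 of 5306 with the control peptide and 4231 of 4674 in sham. Microglia needed 6 of 11 markers and 100 marker UMIs per 10000, and no other type's gate. Border-associated macrophages needed 5 of 11 markers with at least 0.5 times the microglia marker UMIs. Neutrophils needed 8 of 15 markers, and monocytes 5 of 14 with fewer than 8 neutrophil markers, both with at least as many own as microglia marker UMIs. These limits were set after marker values were seen. In the same library order, 160, 355 and 216 kept cells were in no class and 77, 152 and 194 had 5 or 6 microglia markers, near that limit. No doublet caller was run. Leaving out cells above 2 times the median UMIs of all kept cells of their library, whatever their type, was tried in its place.

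UMIs were summed by library and type and given as CPM with exact Poisson intervals, and ratios and shares with Clopper-Pearson intervals, at 95%. A count of 0 allows up to 3 counts, which is 0.131, 0.0674 and 0.103 CPM in the microglia of the 3 libraries. Each group was 1 library, so no test was run. The members and the lists were chosen with earlier results of these data known. Besides the members, the rule for named genes took the highest and lowest of each list at 10 CPM or more, the 8 genes most like the AP-1 sum, and defining markers; a few genes it took are not reported here. Zfp36l1, Fosl1, Apoe, Ttr, the genes overlapping members and the leading genes of clusters were named outside it after their values were seen. Gene positions came from GENCODE M21, which held 32235 of 32285 identifiers, and promoters from RefSeq on GRCm38.p6. The interval code was tested on simulated data. Python 3.11.15, numpy 2.4.6, scipy 1.17.1, pandas 2.3.3, scanpy 1.11.5, leidenalg 0.10.2 and matplotlib 3.10.9 were used.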

Additional observations from a re-analysis of the deposited data

Results flagged for a closer look

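Junb stood apart between cell types in the comparison of the control peptide with sham, where the interval of its ratio lay below 1 in monocytes and above 1 elsewhere. It was 0.821-fold [0.700 to 0.964] in monocytes, against 3.13-fold in microglia, 3.66-fold in border-associated macrophages and 1.52-fold in neutrophils. With 1 library per group the difference between the types was not tested. The Junb ratio in monocytes was 1.08 with fewer than 4 neutrophil markers allowed. It was 1.27 without monocytes above 2 times the median UMIs of all kept cells of their library. In neutrophils the Junb ratio was 0.655 under that same cut, and 1.06 with at least 20 times more neutrophil than microglia marker UMIs.

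Barcodes left out by the filter on cells, which no comparison used, also carried AP-1 transcripts. The 7 genes summed to 3695 CPM in 150 such barcodes with APOE130-149 and 2111 CPM in 295 with the control peptide, against 1033 CPM in 443 in sham, and these differences were not tested.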

How the results depend on the processing

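In microglia the counts of AP-1 genes past 1.5-fold were 6 for APOE130-149 over sham, 6 for the control peptide over sham and 2 between the NMOSD libraries, and each stayed the same under 11 other settings and under 1 added after seeing the data (cells of 4000 to 16000 UMIs). A threshold of 2-fold gave 6, 5 and 0, with Atf3 lost from the second. Under the stricter gate of 41, 118 and 205 cells Atf3 left the control peptide count and Fosl2, at 1.67-fold, entered it. The scalings moved the log2 ratio of all genes by at most 0.10. With every gene of at least 1 UMI counted, 16.1%, 14.5% and 16.4% of all genes passed 1.5-fold upward in the 3 comparisons. The alternatives gave 250 values for microglia, 84 for neutrophils, 84 for monocytes and 55 for border-associated macrophages, at any size of ratio. Those that turned the direction of a ratio of at least 1.5-fold, up or down, numbered 0, 7, 0 and 0 in that order. Values of smaller ratios are in the totals but could not be counted as turned. With smaller ratios included, 5, 8, 8 and 3 values crossed 1, among them Atf3 in microglia between the NMOSD libraries (0.917 and 0.936) and Junb in monocytes with the control peptide over sham (1.08 and 1.27). Without neutrophils above 2 times the median UMIs of all kept cells, Junb was 0.655-fold (control peptide over sham). Atf3 was then 0.340-fold (APOE130-149 over sham), 0.609-fold (control peptide over sham) and 0.557-fold (between the NMOSD libraries). In neutrophils with at least 20 times more neutrophil than microglia marker UMIs, Atf3 was 0.784-fold, 0.795-fold and 0.986-fold in the same order. The alternatives leave out cells, and the cause was not tested further. No paired analysis was possible because each group was 1 library. Depth limits Fosl2, with 230, 412 and 263 UMIs in the microglia of the 3 libraries, and the rarer cell types.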
